A study of Homo sapiens with 95 samples.

Results

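The 8 genes described here are the nectins NECTIN1, NECTIN2, NECTIN3 and NECTIN4 and the cadherins CDH1 (E-cadherin), CDH2 (N-cadherin), CDH3 (P-cadherin) and CDH13 (T-cadherin), 8 of 27978 gene symbols counted in 95 libraries. They were chosen by name around NECTIN3, which was itself selected as the largest rise in FAT1 against GFP. That rise was read as the one with DMSO, where NECTIN3 ranks first, so that contrast is given for these genes as a description without a test. The libraries came from AALE cells, an immortalized human bronchial epithelial line, and were made by sparse full length (SFL) sequencing, a multiplexed method that removes ribosomal RNA before sequencing. CRISPR knockouts of FAT1 and CDKN2A had as their control the line GFP, transfected with the Cas9-EGFP plasmid PX458 lacking a guide RNA. Overexpression of NRF2 (gene NFE2L2), FGFR1, NRG1 and PIK3CA had as its control the line HCRED, which carried an empty vector with the reporter HcRed. Each of the 8 lines was exposed, at confluence in 24-well plates, to the vehicle DMSO or to 1 of 3 tobacco carcinogens: cigarette smoke condensate (CSC) at 24 µg/ml, benzo[a]pyrene (BaP) at 173 µM or the nitrosamine NNK at 490 µM. There were 3 libraries for each of 31 combinations and 2 for FGFR1 with CSC. How long the cells were exposed, and whether a line was 1 clone or a pool, is not given in the sources used here. The study calls its replicates biological, but neither it nor the labels say whether they were separate cultures, so p-values measure only the spread between these libraries.

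Nectins and classic cadherins build the adherens junction, the belt that holds neighbouring epithelial cells together. Nectins are immunoglobulin-like proteins that do not need calcium, pair with the same or another nectin on the next cell and bind afadin (AFDN) inside the cell. Classic cadherins pair through calcium and bind catenins, which join them to actin. E-cadherin and P-cadherin are the usual cadherins of airway basal cells, N-cadherin is typical of mesenchymal and neural cells, and T-cadherin differs from the other 3 in that it is held in the membrane by a lipid anchor and lacks the part that binds catenins.

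The libraries held 287446 to 2116383 counted reads, with a median of 934235. The median was 1051108 with DMSO and 753703 to 836088 with the 3 carcinogens, so low genes were measured more coarsely there. The perturbed genes followed the labels. FAT1 stood at 0.266 to 0.302 times its GFP level over the 4 chemicals, CDKN2A at 0.375 to 0.519 times, and the 4 overexpressed genes at 5.30 to 366 times HCRED. All 6 markers of airway basal epithelium passed the filter of a mean count above 1, with a summed level of 3244 to 10840 CPM (reads scaled to a common library size) per library. Markers of ciliated, secretory and endothelial cells were near 0, with summed levels of at most 5.59 CPM for 2 ciliated markers, 5.67 CPM for 3 secretory markers and 6.38 CPM for 4 endothelial markers. Of 4 leukocyte markers CD3E had 0 reads in every library and only CD68 passed the filter, with a summed level of up to 38.3 CPM. Of 5 fibroblast markers COL1A1 had reads in every library (mean 26.7 CPM), the summed level reached 68.4 CPM, and LUM, PDGFRB and COL1A2 averaged under 1 read. The luminal keratins KRT8 and KRT18 summed to 137 to 563 CPM.

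RefSeq promoters (GRCh38.p14, from 250 bases before to 50 bases after a start) were at hand for 4 of the 8 genes. The 3 sequences here belong to NECTIN3 and CDH2, the genes that moved most, and NECTIN4, which moved in opposite directions in different lines. Capitals mark each match to CANNTG, the E-box core, whose versions CACCTG and CAGGTG are the letters known for Snail and ZEB repressors of cadherin genes.
NECTIN3, chr3:111071566-111071865, plus strand: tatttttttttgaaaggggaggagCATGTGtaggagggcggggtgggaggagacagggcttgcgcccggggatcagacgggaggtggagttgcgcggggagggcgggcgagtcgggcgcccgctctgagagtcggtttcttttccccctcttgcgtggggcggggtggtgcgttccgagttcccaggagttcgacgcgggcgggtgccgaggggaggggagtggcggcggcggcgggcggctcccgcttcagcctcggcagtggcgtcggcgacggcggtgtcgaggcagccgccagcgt
NECTIN4, chr1:161089509-161089808, minus strand: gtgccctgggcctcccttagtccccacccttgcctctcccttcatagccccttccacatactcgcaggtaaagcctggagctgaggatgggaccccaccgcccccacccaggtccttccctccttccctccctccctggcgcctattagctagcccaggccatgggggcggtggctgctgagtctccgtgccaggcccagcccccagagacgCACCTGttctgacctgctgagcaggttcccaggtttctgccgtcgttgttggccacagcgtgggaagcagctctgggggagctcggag
CDH2, chr18:28177081-28177380, minus strand: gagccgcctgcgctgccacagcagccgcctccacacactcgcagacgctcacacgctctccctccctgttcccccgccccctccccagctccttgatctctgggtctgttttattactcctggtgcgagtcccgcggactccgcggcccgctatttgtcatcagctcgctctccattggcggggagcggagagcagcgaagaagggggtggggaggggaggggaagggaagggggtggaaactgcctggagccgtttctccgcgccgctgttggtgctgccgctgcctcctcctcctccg
The NECTIN3 window held 1 E-box core, CATGTG at position 25, and 36 CpG pairs. The NECTIN4 window held 1, CACCTG at position 213, and only 10 CpG pairs. The CDH2 window held no match and 23 CpG pairs, and a second CDH2 window (chr18:28036592-28036891) held CAGATG at position 154. Both strands are read at once, since CANNTG is its own reverse complement. Of all 35116 RefSeq promoters of this length 68.7% hold CANNTG and 20.6% hold CACCTG or CAGGTG, so a match in these windows is common and is given as a description only.

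Levels were scaled to CPM with trimmed mean of M values (TMM) factors and compared between genes per kilobase of exon. CDH1 (chr16:68771195-68869440, GRCh37, plus strand) was the highest of the 8, at 81.8 ± 12.8 CPM per kilobase (SD over 95 libraries), and its neighbour CDH3 (chr16:68670092-68761371), which ends 9823 bases before CDH1 begins, stood at 31.0 ± 4.71. NECTIN1 (chr11:119494120-119599910, minus strand) and NECTIN2 (chr19:45349432-45392480) followed at 10.8 ± 3.07 and 9.05 ± 2.36 CPM per kilobase. The other 4 lay lower: NECTIN4 (chr1:161040788-161059348) at 3.85 ± 2.10, CDH13 (chr16:82660570-83834245) at 3.20 ± 1.26, NECTIN3 (chr3:110788918-110994410) at 1.17 ± 0.919 and CDH2 (chr18:25512843-25757910, minus strand) at 0.963 ± 0.797. By level this was an epithelial set, with E-cadherin and P-cadherin above the rest. The 2 lowest genes were also the most variable, with an SD close to the mean. NECTIN3 and CDH2 had a mean of 8.52 and 8.21 reads per library, so single libraries measured them coarsely. Intervals given below for ratios of reads cover counting error only.

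**Figure D1:**
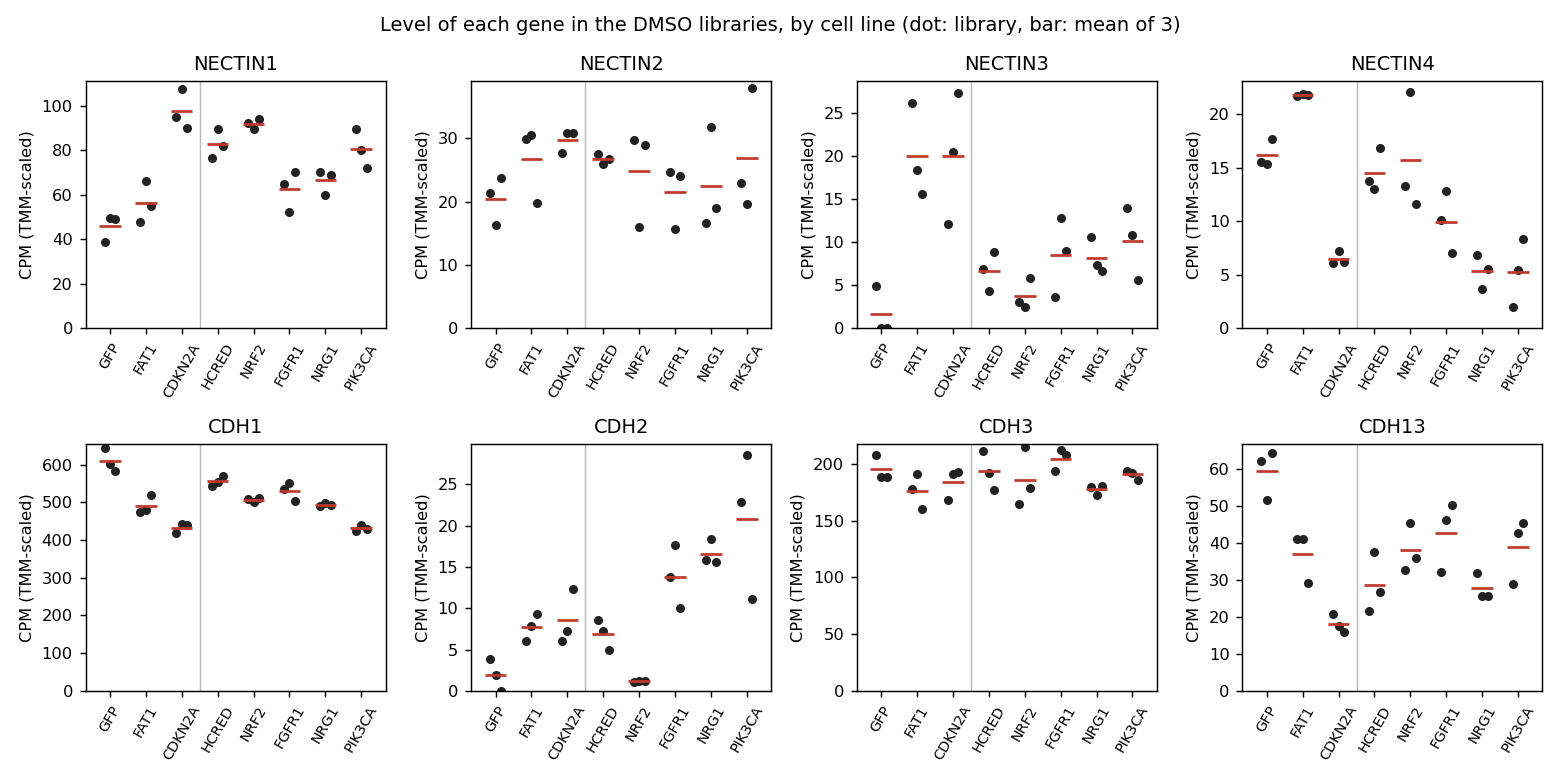
Level of each of the 8 genes in the 24 DMSO libraries, in CPM scaled by TMM, by line, 1 panel per gene with its own axis from 0; points are libraries, bars are means of 3 and the vertical line parts the knockout lines from the overexpression lines. CDH1 lies between 418 and 644 CPM in every line, while NECTIN3 and CDH2 spread over the widest range between lines.

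With DMSO the order of the 8 lines differed from gene to gene. For NECTIN3 the mean ran from FAT1 and CDKN2A down to GFP, a 12.4-fold span, and in all 7 pairs of lines next to each other in that order the libraries overlapped. For CDH2 it ran from PIK3CA down to NRF2, an 18.3-fold span with 6 of 7 neighbouring pairs overlapping. CDH1 spanned 1.42-fold from GFP down to PIK3CA, with 4 of 7 overlapping, and CDH3 only 1.16-fold, with 7 of 7 overlapping. The spans for NECTIN1, NECTIN2, NECTIN4 and CDH13 were 2.13-fold, 1.46-fold, 4.15-fold and 3.30-fold, and 5, 7, 5 and 5 of their 7 neighbouring pairs overlapped. The lines next to each other therefore often did not differ beyond their spread, and the ends of each order carried the contrast. GFP held the highest mean of CDH1 and of CDH13 with each of the 4 chemicals.

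NECTIN3, the nectin that pairs most strongly with NECTIN1 and NECTIN2 on neighbouring cells, had 35, 21 and 15 reads in the 3 FAT1 libraries with DMSO and 5, 0 and 0 in the 3 GFP libraries. These are 26.2, 18.4 and 15.6 CPM against 4.86, 0 and 0 CPM, and the 2 sets did not overlap. The fitted difference was 4.43 ± 0.79 (log2, SE), rank 1 among all 14266 genes tested in this contrast. The nearest gene below it was IFI44 at 4.29 ± 0.40, an interferon-induced gene with 124, 90 and 79 reads against 4, 4 and 5. These values chose NECTIN3, and with 2 GFP libraries at 0 the fitted value depends on the model's prior. The pooled reads gave 13.9-fold.

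The choice named no chemical. NECTIN3 was rank 1 with DMSO and rank 27 of 13861 genes over the 3 carcinogens, so the carcinogen libraries were taken as not used in the choice and were tested. There NECTIN3 was again higher in FAT1. With CSC it had 14, 14 and 17 reads in FAT1 and 5, 3 and 6 in GFP, a 4.43-fold ratio of scaled reads (2.39 to 8.74). With BaP it had 18, 6 and 13 reads against 1, 1 and 0, a ratio of 17.1 (4.41 to 147). With NNK it had 7, 16 and 12 reads against 1, 1 and 2, a ratio of 6.01 (2.15 to 23.3). In CPM every FAT1 library lay above every GFP library of its chemical. Across the 9 FAT1 libraries against 9 GFP libraries the log2 difference was 2.48 ± 0.32 (adjusted p = 9.41e-10, limma-voom with Benjamini-Hochberg adjustment over all genes). It was called in 3 of 3 chemicals taken alone, at 2.19 to 3.34.

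NECTIN3 was also apart from GFP in the other knockout line. CDKN2A libraries with DMSO had 14, 20 and 31 reads, or 12.1, 20.5 and 27.4 CPM, all above the same 3 GFP libraries. The difference was 4.35 ± 0.80, given without a test because the low GFP libraries with DMSO also entered the choice of NECTIN3. With carcinogens it was 2.68 ± 0.35 (adjusted p = 1.83e-09), called in 3 of 3 chemicals. FAT1 and CDKN2A share the GFP libraries, so their differences from GFP are not independent of each other. Over the 12 libraries of a line NECTIN3 averaged 2.46 CPM in GFP, 17.7 in FAT1 and 18.6 in CDKN2A. In bulk RNA fewer cells expressing a gene and less RNA per cell cannot be told apart.

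CDH2, the mesenchymal cadherin, was the other low gene that stood higher in both knockout lines. With DMSO it had 8, 9 and 9 reads in FAT1 and 4, 2 and 0 in GFP, or 5.98, 7.87 and 9.35 CPM against 3.89, 1.92 and 0 CPM. The sets did not overlap, and the difference, given without a test, was 2.41 ± 0.70 (log2, SE). With CSC it had 10, 6 and 7 reads in FAT1 and 1, 4 and 3 in GFP. With BaP and with NNK it had 0 reads in all 6 GFP libraries and 2 to 12 in each FAT1 library. Set against a floor of 3 reads over the 3 GFP libraries, CDH2 was 5.24-fold higher in FAT1 with BaP and 6.19-fold higher with NNK. These ratios leave out the counting error of the FAT1 reads. The test over the 3 carcinogens gave 2.76 ± 0.39 (adjusted p = 1.36e-08), a fitted value that is no bound where GFP was at 0.

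In CDKN2A libraries CDH2 had 7, 7 and 14 reads with DMSO, or 6.05, 7.19 and 12.4 CPM, all above GFP. The difference was 2.56 ± 0.70 with DMSO (adjusted p = 0.00228) and 2.58 ± 0.40 with carcinogens (adjusted p = 2.15e-07). Without GFP replicate 3, the library at 0, the DMSO value was 1.40 and was not called (adjusted p = 0.0880). Within CSC alone, where the CDKN2A libraries had 4, 3 and 3 reads and the GFP libraries 1, 4 and 3, it was 1.19 (adjusted p = 0.148). CDH2 was thus called in CDKN2A with DMSO, BaP and NNK but not with CSC.

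**Figure D2:**
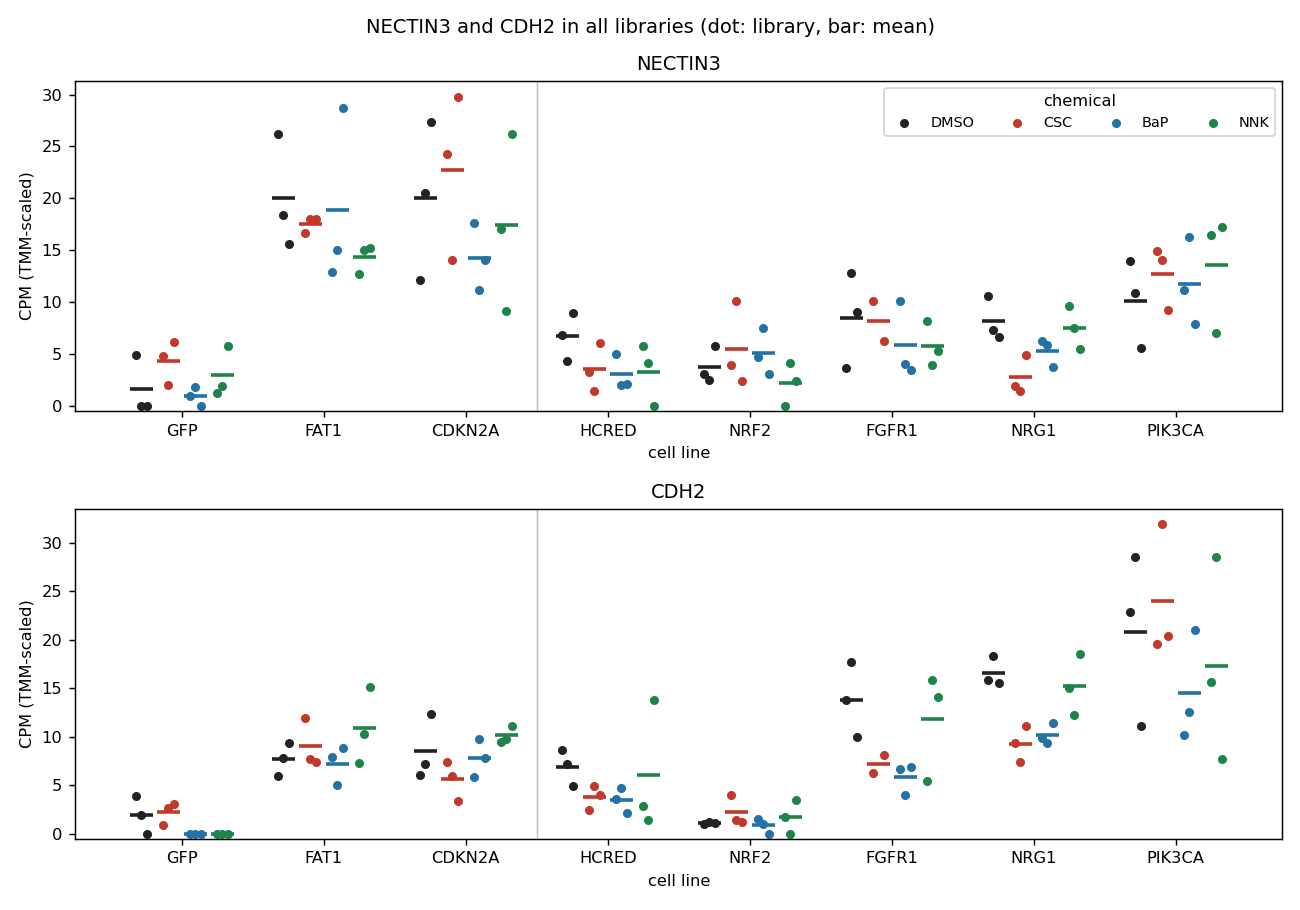
NECTIN3 (top) and CDH2 (bottom) in all 95 libraries, in CPM, by line and, in colour, by chemical; each point is a library and each bar the mean of a group. NECTIN3 is highest in FAT1, CDKN2A and PIK3CA, and CDH2 is at 0 CPM in every GFP library with BaP or NNK and highest in PIK3CA.

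The epithelial cadherins fell in both knockout lines. CDH1 stood at 475, 479 and 518 CPM in FAT1 with DMSO and 644, 602 and 583 CPM in GFP, 2 sets that did not overlap and differed by −0.33 ± 0.07 (log2, no test). With carcinogens it fell by 0.50 ± 0.05 in FAT1 (adjusted p = 7.62e-15), and was called in 3 of 3 chemicals. In CDKN2A it stood at 418, 442 and 439 CPM with DMSO and differed from GFP by −0.50 ± 0.06 (adjusted p = 1.34e-10), and by −0.61 ± 0.05 with carcinogens (adjusted p = 3.43e-16). CDH3 did not separate with DMSO, at 178, 192 and 160 CPM in FAT1, 169, 191 and 193 in CDKN2A and 208, 189 and 189 in GFP. The CDKN2A difference with DMSO was −0.10 (95% interval −0.28 to 0.08, adjusted p = 0.434). With carcinogens CDH3 fell in both lines, by 0.46 ± 0.07 in FAT1 (adjusted p = 6.31e-08) and by 0.41 ± 0.07 in CDKN2A (adjusted p = 2.11e-06). These changes were small in fold but well measured, since CDH1 and CDH3 had the most reads of the 8 genes.

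CDH13 was highest in GFP, at 62.2, 51.7 and 64.5 CPM with DMSO, against 41.1, 41.1 and 29.1 in FAT1 and 20.8, 17.5 and 15.9 in CDKN2A. Neither knockout line overlapped GFP. The FAT1 difference was −0.69 ± 0.18 (no test) with DMSO and −0.86 ± 0.14 with carcinogens (adjusted p = 4.75e-07). The CDKN2A difference was −1.72 ± 0.22 with DMSO (adjusted p = 1.48e-09) and −1.42 ± 0.16 with carcinogens (adjusted p = 2.12e-11), so T-cadherin showed the steepest fall of the 4 cadherins in that line.

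The other 3 nectins moved less. NECTIN1, a herpesvirus entry receptor and the partner of NECTIN3, stood at 95.1, 108 and 90.1 CPM in CDKN2A with DMSO and 38.9, 49.8 and 49.1 CPM in GFP. It rose by 1.06 ± 0.15 with DMSO (adjusted p = 2.26e-08) and 0.93 ± 0.11 with carcinogens (adjusted p = 2.46e-10). In FAT1 it stood at 47.9, 66.4 and 55.1 CPM with DMSO, overlapping GFP, and rose by 0.46 ± 0.11 with carcinogens (adjusted p = 0.000520). NECTIN4, an epithelial nectin that several carcinomas overexpress, stood at 21.7, 21.9 and 21.8 CPM in FAT1 with DMSO, 6.05, 7.19 and 6.18 in CDKN2A and 15.6, 15.3 and 17.6 in GFP. It was thus the 1 gene of the 8 whose libraries lay above GFP in one knockout line and below GFP in the other. With carcinogens it rose by 0.64 ± 0.19 in FAT1 (adjusted p = 0.00536), a call lost without replicate 1 (0.55, adjusted p = 0.0830). In CDKN2A it fell by 1.29 ± 0.37 with DMSO (adjusted p = 0.00347), while the carcinogen difference of −0.44 was not called (95% interval −0.92 to 0.04, adjusted p = 0.127). NECTIN2 passed in neither line, with 0.18 in FAT1 (−0.10 to 0.47, adjusted p = 0.329) and 0.27 in CDKN2A (0.00 to 0.55, adjusted p = 0.0973) with carcinogens.

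All 8 genes passed the filter in every comparison. The shares of all genes called were high in the knockout lines. In the contrast of FAT1 and GFP with DMSO, from which NECTIN3 was chosen, 26.3% of all genes tested were called and the 8 genes had a median log2 difference of 0.31 against 0.01 over all genes. With carcinogens 7 of the 8 were called in FAT1, 4 higher and 3 lower, where 40.9% of all genes were called. In CDKN2A with DMSO 6 of 8 were called, 3 in each direction, against 37.2% of all genes. NECTIN3 is among these 6 and is no support there, since the low GFP libraries with DMSO also entered its choice. With carcinogens 6 of 8 were called in CDKN2A, 3 in each direction, against 50.9% of all genes. The median of the 8 was 0.21 with DMSO and −0.07 with carcinogens in CDKN2A, beside 0.02 and 0.01 over all genes.

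**Figure D3:**
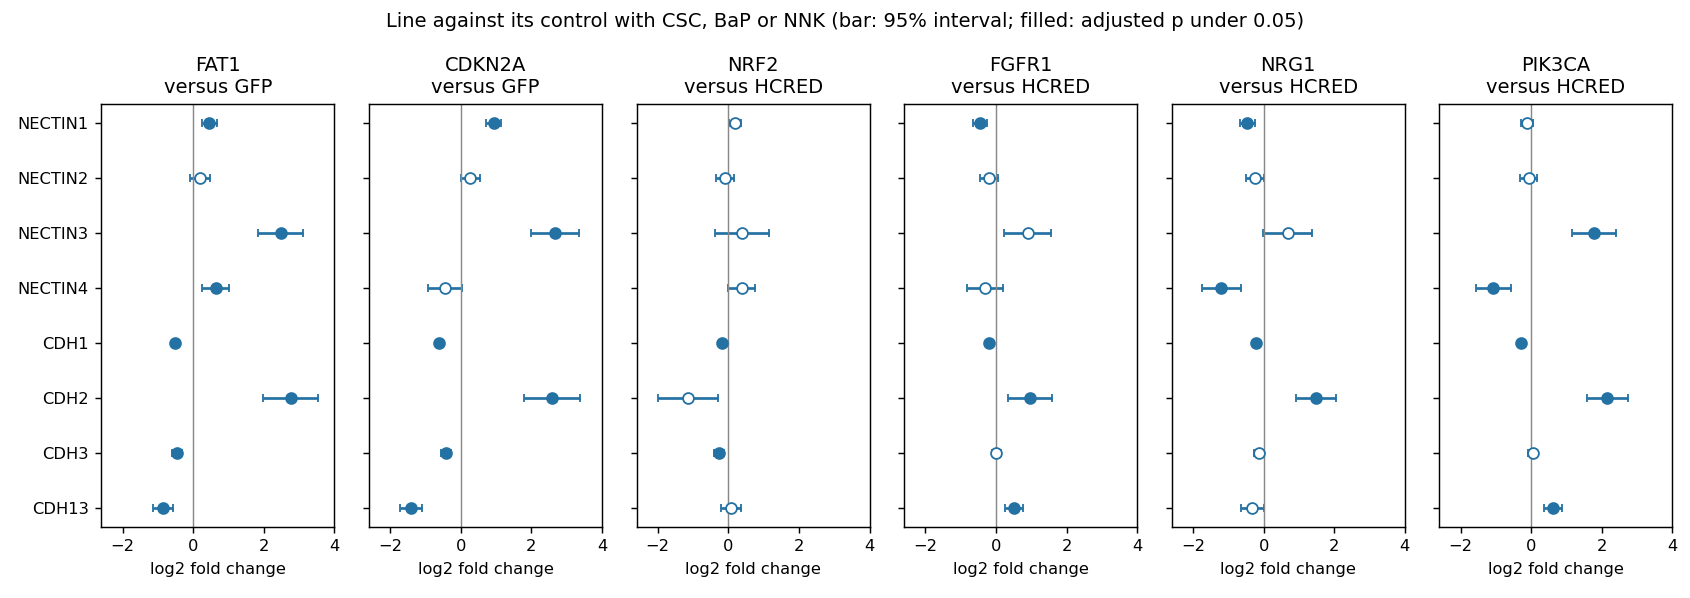
Log2 difference of each line from its control over CSC, BaP and NNK for the 8 genes, with 95% intervals; filled points have an adjusted p under 0.05. NECTIN3 lies right of 0 in all 6 lines and is filled in FAT1, CDKN2A and PIK3CA. CDH2 lies right of 0 and is filled in every line but NRF2, and CDH1 lies left of 0 in all 6 lines.

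The 2 control lines were themselves far apart for several of these genes. Over 12 libraries each, NECTIN3 averaged 2.46 CPM in GFP and 4.16 in HCRED, CDH2 1.04 and 5.05, NECTIN1 55.0 and 94.7, CDH13 55.9 and 29.2, and CDH1 610 and 562. Set against the same floor for GFP, CDH2 was 2.69-fold higher in HCRED with BaP and 2.68-fold higher with NNK. These ratios rest on 13 and 9 HCRED reads and leave out their counting error. When HCRED replaced GFP as the control of FAT1, an alternative chosen after seeing the data, NECTIN3 stayed called with carcinogens at 2.29, and CDH2 at 1.20 (adjusted p = 0.00120). NECTIN4 was called at 0.90, CDH1 at −0.36 and CDH3 at −0.19 (adjusted p = 0.0363). NECTIN1 turned to −0.30 and was called in that direction (adjusted p = 0.0131), and CDH13 went to 0.03 (adjusted p = 0.921). With DMSO NECTIN3 was 1.495 and CDH2 0.11 against HCRED. The direction of NECTIN1 and CDH13 in FAT1 thus turned on which control line was used.

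For CDKN2A against HCRED, 3 genes were called with DMSO in place of 6: NECTIN3 at 1.39, NECTIN4 at −1.14 and CDH1 at −0.37. With carcinogens 4 were called, namely NECTIN3 at 2.45, CDH2 at 0.96, CDH1 at −0.48 and CDH13 at −0.55. NECTIN1, at 0.24 and 0.18 against HCRED, was called in neither. CDH3, at −0.09 and −0.15, was not called in either setting. The shares of all genes called against HCRED are not given here. The labels give 1 line per perturbation, so the perturbation and other differences between a line and its control cannot be told apart.

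**Figure D4:**
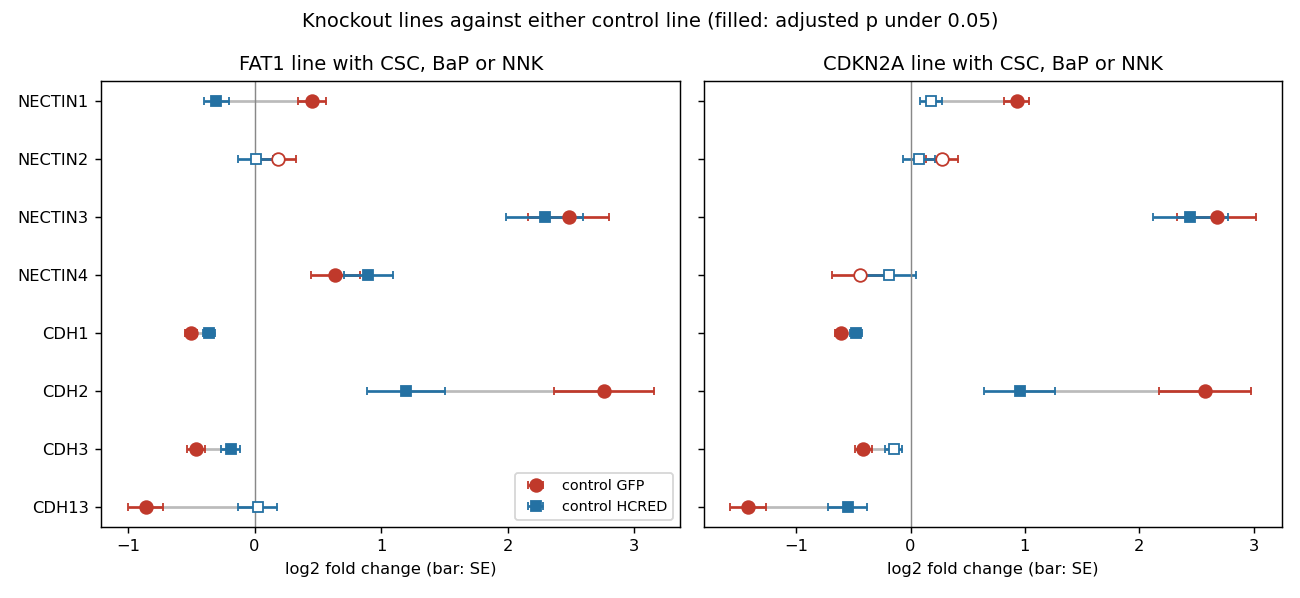
Log2 difference of FAT1 (left) and CDKN2A (right) over CSC, BaP and NNK for the 8 genes with GFP or with HCRED as the control; bars are SE and filled points have an adjusted p under 0.05. NECTIN3 lies right of 0 and CDH1 left of 0 with both controls, while NECTIN1 and CDH13 in FAT1 change side.

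Among the overexpression lines PIK3CA, the catalytic subunit of a lipid kinase, had the most of the 8 genes called against HCRED. CDH2 had 23, 42 and 12 reads with DMSO, or 22.9, 28.5 and 11.1 CPM, against 8.60, 7.22 and 4.95 CPM in HCRED, with no overlap. It rose by 1.49 ± 0.40 with DMSO (adjusted p = 0.00780) and by 2.16 ± 0.29 with carcinogens (adjusted p = 1.23e-08), called in 3 of 3 chemicals. NECTIN3 overlapped HCRED with DMSO, at 13.9, 10.9 and 5.56 CPM against 6.88, 4.33 and 8.91, and rose with carcinogens by 1.79 ± 0.32 (adjusted p = 9.27e-06). NECTIN4 stood at 1.99, 5.43 and 8.34 CPM with DMSO against 13.8, 12.99 and 16.8, and fell by 1.54 ± 0.43 (adjusted p = 0.0115), and by 1.07 ± 0.25 with carcinogens (adjusted p = 0.000666). CDH1 fell by 0.36 ± 0.07 with DMSO (adjusted p = 3.68e-05) and 0.28 ± 0.04 with carcinogens (adjusted p = 6.38e-07). With carcinogens it was called lower in all 6 perturbed lines. These 6 comparisons share GFP or HCRED as the control, the lines with the highest CDH1 means, so they are not independent. CDH13 rose by 0.62 ± 0.13 with carcinogens (adjusted p = 0.000137), opposite to its direction in the knockout lines against GFP. NECTIN1, NECTIN2 and CDH3 passed in neither setting, at −0.11, −0.07 and 0.04 with carcinogens. In PIK3CA 3 of 8 genes were called with DMSO, where 8.60% of all genes were, and 5 of 8 with carcinogens, where 22.0% were. Counted with DESeq2, 1 of the 8 was called with DMSO.

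NRG1, a ligand of ERBB receptors, showed some of these differences. CDH2 stood at 15.9, 18.4 and 15.6 CPM with DMSO, above each HCRED library, but was not called there (1.21, adjusted p = 0.0834). With carcinogens it rose by 1.48 ± 0.29 (adjusted p = 0.000339), while NECTIN4 fell by 1.20 ± 0.28 (adjusted p = 0.00297), NECTIN1 by 0.46 ± 0.10 (adjusted p = 0.00225) and CDH1 by 0.20 ± 0.05 (adjusted p = 0.00335). The other members did not pass, with NECTIN2 at −0.25, NECTIN3 at 0.68, CDH3 at −0.13 and CDH13 at −0.32. These are 4 calls in 8 genes against 6.38% of all genes. Without replicate 1 of every group 1 of the 8 was called, and the share of all genes in that fit is not given here. With DMSO 0 of 8 passed limma-voom, edgeR or DESeq2 in NRG1, against 2.04% of all genes. Of the 8 genes 3 had an unadjusted p under 0.05, as did 1784 of all 14053 genes.

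In FGFR1, a receptor tyrosine kinase, 0 of 8 passed with DMSO by limma-voom, edgeR or DESeq2, where 1.86% of all genes did. Of the 8 genes 3 had an unadjusted p under 0.05, as did 1800 of all 14214 genes. CDH2 stood at 13.8, 17.7 and 10.03 CPM, above every HCRED library, with a difference of 0.93 (95% interval 0.14 to 1.71, adjusted p = 0.281). With carcinogens 4 of 8 were called against 9.48% of all genes: CDH13 at 0.51 ± 0.14 (adjusted p = 0.00822), CDH2 at 0.96 ± 0.32 (adjusted p = 0.0437), NECTIN1 at −0.46 ± 0.10 (adjusted p = 0.000543) and CDH1 at −0.20 ± 0.04 (adjusted p = 0.00141). NECTIN2 at −0.19, NECTIN3 at 0.89, NECTIN4 at −0.30 and CDH3 at 0.01 did not pass. The 4 calls rested on few libraries, since leaving out 1 replicate of every group left 0 to 3 of them, 0 without replicate 2 and 2 without replicate 3. The shares of all genes called in those fits are not given here. CDH2 also lost its call when replicate number was added as a term.

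NRF2, the transcription factor of the antioxidant response, was the line with the least CDH2 among the overexpression lines. CDH2 had 1, 1 and 1 reads with DMSO against 10, 5 and 5 in HCRED, a ratio of 0.162 (0.0309 to 0.547). The difference of −2.11 ± 0.73 did not pass (adjusted p = 0.0606), although it did with edgeR at −2.49 (adjusted p = 0.0273). With DMSO 0 of 8 were called by limma-voom, where 7.16% of all genes were. Of the 8 genes 3 had an unadjusted p under 0.05, as did 2806 of all 14035 genes. With carcinogens 2 of 8 were called against 15.6% of all genes, CDH1 at −0.19 ± 0.04 (adjusted p = 0.000825) and CDH3 at −0.27 ± 0.07 (adjusted p = 0.00667), and CDH2 was at −1.15 (adjusted p = 0.0600). NECTIN1 at 0.19, NECTIN2 at −0.10, NECTIN3 at 0.38, NECTIN4 at 0.37 and CDH13 at 0.08 did not pass. The 4 overexpression lines share the HCRED libraries.

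Between carcinogen and DMSO libraries the well measured members differed by small amounts. NECTIN2, which binds the lymphocyte receptors TIGIT and CD226, was higher in 8 of 8 lines with each carcinogen, by 0.56 ± 0.08 with CSC (adjusted p = 4.22e-09), 0.53 ± 0.08 with BaP (adjusted p = 3.73e-08) and 0.56 ± 0.08 with NNK (adjusted p = 5.78e-09). NECTIN1 rose by 0.26 ± 0.06 with CSC, 0.15 ± 0.06 with BaP and 0.36 ± 0.06 with NNK, and was higher in 8, 7 and 8 of 8 lines. CDH1 fell by 0.21 ± 0.03 with BaP (adjusted p = 6.20e-12), lower in 8 of 8 lines and called in 4 of them, and rose by 0.10 ± 0.03 with NNK (adjusted p = 0.000320), higher in 8 of 8. CDH3 rose by 0.20 ± 0.04 with NNK (adjusted p = 2.50e-05). With BaP CDH13 fell by 0.26 ± 0.09 (adjusted p = 0.00800) and CDH2 by 0.56 ± 0.17 (adjusted p = 0.00323). NECTIN3 and NECTIN4 were called with none of the 3, with NECTIN3 at 0.00 for CSC (95% interval −0.34 to 0.33) and NECTIN4 at 0.12, 0.27 and 0.19. The DMSO libraries that chose NECTIN3 are among those fitted, so its values here are a description only.

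Of the 8 genes 2 were called with CSC, 5 with BaP and 4 with NNK, where 55.1%, 51.0% and 51.8% of all genes were, so these shares lay near or below those of all genes. Without replicate 1, 2 or 3 of every group, 3 were called with BaP, and the shares of all genes in those fits are not given here. The values also moved with base composition. NECTIN1 and NECTIN2 hold 59.6% and 61.7% G and C in their exons, the most of the 8. After a trend on GC content and exon length was removed, NECTIN2 was at 0.10, 0.09 and 0.14 with CSC, BaP and NNK, and NECTIN1 at −0.12, −0.22 and −0.02, the BaP value being called in the opposite direction (adjusted p = 0.00153). CDH3 turned to −0.14 with CSC and −0.15 with BaP, both called, and was at 0.01 with NNK. CDH1 kept its calls, at −0.23 with BaP and 0.08 with NNK. The BaP calls of CDH13 and CDH2 were lost, at −0.12 (adjusted p = 0.332) and −0.39 (adjusted p = 0.0795), and CDH13 was called with CSC at 0.26 (adjusted p = 0.00437). The part of GC content in these results was not tested further.

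**Figure D5:**
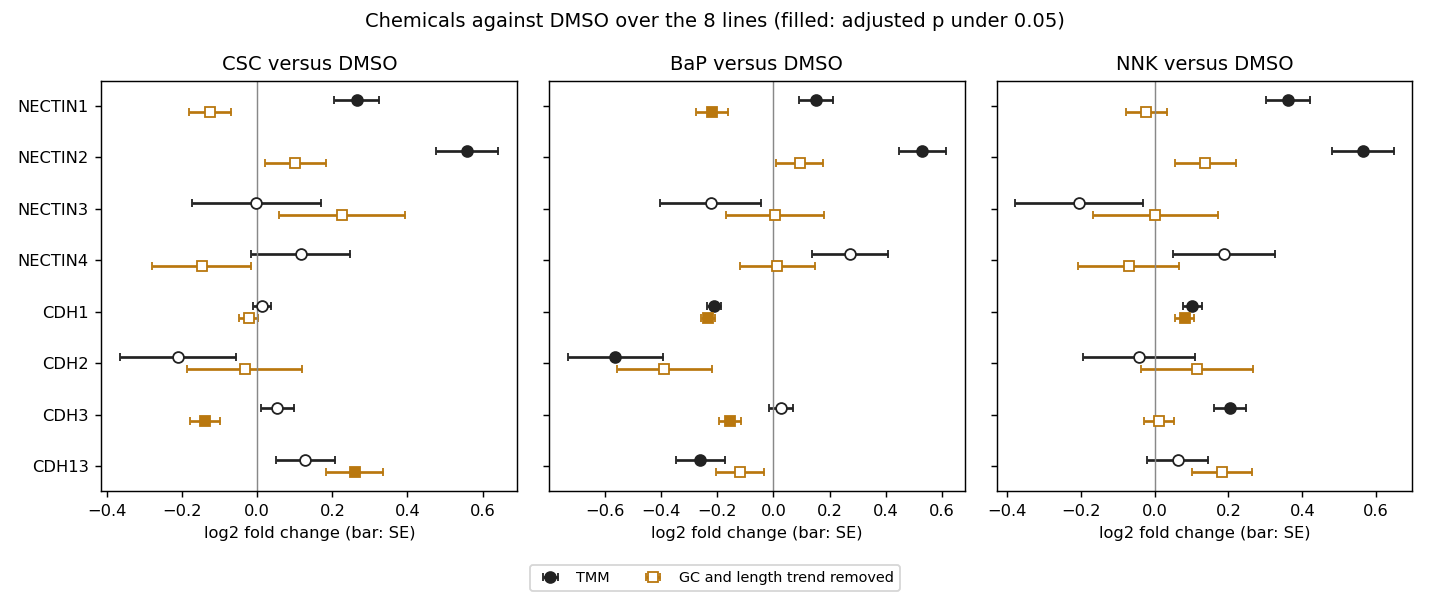
Log2 difference of CSC, BaP and NNK from DMSO over the 8 lines, as fitted and after removal of the trend on GC content and exon length, for the 8 genes; bars are SE and filled points have an adjusted p under 0.05. NECTIN1 and NECTIN2 lie right of 0 as fitted, and after the removal NECTIN1 lies left of 0 and NECTIN2 nearer to it, while CDH1 stays left of 0 with BaP.

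No member's response to the chemicals could be shown to differ between lines. The test of interaction between line and chemical called 0 of 8 by limma-voom or edgeR against 2.20% of all genes (smallest adjusted p = 0.230 for CDH3). Of the 8 genes 2 had an unadjusted p under 0.05, as did 2019 of all 14384 genes. That fit holds the FAT1 and GFP libraries with DMSO that chose NECTIN3, so for NECTIN3 it is a description only. The test of whether the difference of FAT1 and GFP varied between the 3 carcinogens called 0 of 8 by limma-voom or edgeR against 0.332% of all genes (smallest adjusted p = 0.537 for NECTIN1). Of the 8 genes 0 had an unadjusted p under 0.05, where 1351 of all 13861 genes did.

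The genes that work with nectins and cadherins moved in both directions. Those said here to rise or fall had an adjusted p under 0.05, and their values are log2 differences. Among catenins, 4 of 6 listed genes passed the filter and CTNNA2 had 0 reads throughout. In FAT1 with carcinogens 0 of the 4 were called by limma-voom, where 40.9% of all genes were. None of the 4 had an unadjusted p under 0.05, where 6663 of all 13861 genes did. JUP (plakoglobin), which binds cadherins in both adherens junctions and desmosomes, fell in CDKN2A by 0.37 with DMSO and 0.53 with carcinogens, in PIK3CA by 0.68 and 0.63, in NRG1 by 0.30 and 0.25 and in FGFR1 by 0.21 with carcinogens. It rose with CSC, BaP and NNK, by 0.39, 0.41 and 0.50. CTNNA1, the link to actin, rose in NRF2 by 0.26 with DMSO and 0.21 with carcinogens, and fell in CDKN2A by 0.25 and in NRG1 by 0.24 with carcinogens. CTNNB1 (beta-catenin), which binds the cadherin tail, rose in CDKN2A by 0.16 with DMSO and 0.13 with carcinogens. Over all chemicals it averaged 441.5 CPM in GFP, 488 in CDKN2A and 572 in HCRED, so CDKN2A lay above GFP but below HCRED. It fell in FGFR1 by 0.16 with carcinogens, with CSC by 0.20 and with BaP by 0.11. CTNND1 overlaps a read-through gene, TMX2-CTNND1, so its count is uncertain.

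All 10 nectin and actin linkers passed the filter. In FAT1 with carcinogens 6 were called, 1 higher and 5 lower, where 40.9% of all genes were, with a list median of −0.24 against 0.01 over all genes. PARD3, a polarity protein that binds nectins, fell by 1.47, and AFDN, the protein that joins nectins to actin, fell by 0.45, while VCL (vinculin) rose by 0.67. In CDKN2A PLEKHA7, which ties cadherins to microtubules, fell by 1.20 with DMSO and 1.13 with carcinogens, and PARD3 by 0.69 and 0.65. With each carcinogen SSX2IP, an afadin-binding protein, fell by 0.44 to 0.45 and ACTN4, an actinin, rose by 0.30 to 0.37.

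Of the 5 nectin-like molecules 3 passed the filter in CDKN2A, and all 3 rose there, where 37.2% of all genes were called with DMSO and 50.9% with carcinogens. CADM2 rose by 2.56 with DMSO and 1.59 with carcinogens, CADM4 by 1.119 and 0.89, and PVR, the poliovirus receptor that pairs with NECTIN3, by 0.64 and 0.60. Over all chemicals CADM4 averaged 6.82 CPM in GFP, 13.5 in CDKN2A and 12.8 in HCRED, so it was close to HCRED. CADM2 (1.605, 6.81 and 2.43 CPM) and PVR (99.6, 152 and 110.5 CPM) were above both controls in CDKN2A. CADM2 averaged only 2.64 reads per library, with 19 libraries at 0. In FAT1 with carcinogens 0 of 2 tested were called by limma-voom, where 40.9% of all genes were, and 0 had an unadjusted p under 0.05. CADM4 fell in FGFR1, NRG1 and PIK3CA with carcinogens, by 0.93, 1.05 and 0.88. Of the 4 lymphocyte receptors of nectins PVRIG averaged 6.15 CPM, with reads in every library, and TIGIT, CD226 and CD96 averaged 0.158, 1.35 and 0.397 CPM. There was 1 call over all comparisons, CD226 with CSC at −0.67 (adjusted p = 0.0489).

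Of 15 other cadherins 3 passed the filter over the 95 libraries and CDH19 had 0 reads in all of them. CDH4 (R-cadherin), a classic cadherin close to N-cadherin, fell in NRF2 by 2.44 with DMSO and 2.59 with carcinogens. With carcinogens it also fell in FGFR1 by 0.86 and in PIK3CA by 0.95, and rose in NRG1 by 0.91. CDH26 rose in FAT1 by 0.89 and fell in NRF2 by 1.44 and in PIK3CA by 1.20, all with carcinogens. CDH24 fell in CDKN2A by 0.93 with DMSO and 0.58 with carcinogens. Over all chemicals CDH24 averaged 53.35 CPM in GFP, 32.62 in CDKN2A and 36.27 in HCRED, so CDKN2A lay below both controls but nearer to HCRED. ADAM10, the protease that sheds the outer part of E- and N-cadherin, fell in FAT1 by 0.37 with carcinogens, in CDKN2A by 0.27 with DMSO and 0.23 with carcinogens, and with CSC, BaP and NNK by 0.26 to 0.50. Over all chemicals it averaged 283 CPM in GFP, 220 in FAT1, 238 in CDKN2A and 227 in HCRED, so CDKN2A lay below GFP but above HCRED.

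The repressors of cadherin genes did not follow CDH1 in a single direction. Of 5 listed, SNAI2, ZEB1 and TWIST1 passed the filter over the 95 libraries. In NRG1 with carcinogens SNAI2 rose by 0.36, ZEB1 by 1.10 and TWIST1 by 0.70. In PIK3CA ZEB1 rose by 1.10 and TWIST1 by 0.52 while SNAI2 fell by 0.47, and CDH1 was lower in both lines. In CDKN2A SNAI2 rose by 0.34 with DMSO and 0.51 with carcinogens, and in FGFR1 it fell by 0.38 with carcinogens. SNAI1 passed the filter in the fit of CDKN2A and GFP with carcinogens and was called higher there too. Over all chemicals SNAI1 averaged 1.72 CPM in CDKN2A, 0.493 in GFP and 0.603 in HCRED. It is near the floor, with a mean of 0.768 reads per library and 54 libraries at 0. Over all chemicals SNAI2 averaged 78.9 CPM in GFP, 109 in CDKN2A and 110 in HCRED, so CDKN2A was close to HCRED. In NRF2 SNAI2 fell by 0.77 with DMSO and by 1.25 with carcinogens, where TWIST1 rose by 0.56. In FAT1 with carcinogens 0 were called by limma-voom, where 40.9% of all genes were, and 1 had an unadjusted p under 0.05.

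VIM (vimentin) and FN1 (fibronectin), genes of a mesenchymal state, differed from the controls as well. In PIK3CA with carcinogens VIM rose by 1.92 and FN1 by 1.22, in NRG1 by 1.39 and 1.24 and in FGFR1 by 1.22 and 0.59. In FAT1 FN1 rose by 1.49 while VIM fell by 0.76, and in CDKN2A FN1 rose by 2.04 while VIM fell by 1.03. Over all chemicals FN1 averaged 100 CPM in GFP, 284 in FAT1, 414.5 in CDKN2A and 695 in HCRED. Both knockout lines thus lay above GFP but below HCRED. VIM averaged 20.65 CPM in GFP, 13.17 in FAT1, 12.25 in CDKN2A and 43.93 in HCRED, so both lay below either control. In NRF2 FN1 fell by 1.55 and VIM by 1.07. Of 5 fibroblast markers 2 passed the filter, and their summed level over a line averaged 27.7 CPM in GFP, 38.5 in FAT1, 42.1 in CDKN2A and 15.3 in PIK3CA. In HCRED, the control of PIK3CA, it was 27.6. The 6 basal markers summed to 5626 CPM in GFP, 4181 in FAT1 and 4601 in CDKN2A, and to 7293 in HCRED and 4721 in PIK3CA. Within that list members moved apart, as in FAT1 with carcinogens, where KRT14 fell by 3.17 and EPCAM rose by 0.46. KRT8 and KRT18 summed to 182 CPM in GFP, 358 in FAT1 and 266 in CDKN2A, and to 239 in HCRED and 500.4 in PIK3CA. The part of these markers in the junction genes' results was not tested.

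Over the 32 combinations of line and chemical the members' patterns were compared with each other as a description. These points share lines, controls and depth. They include FAT1 and GFP with DMSO, the values that chose NECTIN3. The highest of 28 pairwise Pearson correlations of log2 CPM was 0.65 between NECTIN3 and CDH2, followed by 0.59 between CDH1 and CDH13. The lowest was −0.68 between NECTIN3 and CDH1, then −0.55 between NECTIN4 and CDH2. Among the 10061 genes whose mean count reached 10, the pattern most like NECTIN1 was that of PSD4 (r = 0.86), then EPS8L1 (0.84) and DGAT1 (0.82). For NECTIN2 these were MBD3 (0.88), CSNK1G2 (0.86) and DAPK3 (0.85), and for NECTIN4 they were NOTCH3 (0.84), RAPGEFL1 (0.83) and PERP (0.80). For CDH1 they were DGKH (0.87), SPTLC2 (0.85) and ABHD2 (0.83), and for CDH3 PTPRF (0.74), MAD1L1 (0.72) and CLSTN1 (0.67). NECTIN3 and CDH2, with a mean under 10 reads, were not matched in this way.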

How the data were processed

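RNA of 95 AALE samples was sequenced by SFL as single-end reads. Per the labels and the study's methods the authors trimmed adapters with Cutadapt 1.12, checked quality with FastQC 0.11.5, aligned to hg19 with STAR 2.5.2b and assigned reads to RefSeq genes with featureCounts. The deposited values are these raw counts per gene symbol and sample, not normalized. The strand setting was not given in the sources used here, so overlapping genes are uncertain. Samples were grouped by the line and chemical in their labels.

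Counts were scaled by TMM and fitted with limma-voom (R 4.3.3, edgeR 4.0.16, limma 3.58.1) over all genes whose count averaged above 1 in the samples of the fit, 2-sided, with Benjamini-Hochberg adjustment over all of them and a threshold of 0.05. Each line was compared with its control in the DMSO samples, and again over CSC, BaP and NNK with chemical as a term. Each chemical was compared with DMSO over all 95 samples with line as a term. Interactions were tested by F tests. Log2 CPM used a prior count of 2. Ratios of pooled reads have exact 95% intervals, with a floor of 3 reads over a group at 0. The fits were tested on simulated data. Gene models (GRCh37) matched 24309 of the 27978 symbols (86.9%).

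The 8 genes and the lists of related genes were chosen with earlier results of these data known. All 8 were fitted in every comparison. Genes named from another list were drawn from those that passed the threshold and were among the 3 largest changes of their list, or are the example of a role, and not every such gene is described. Alternatives were edgeR, DESeq2 (1.42.0), other scaling, filters, a fit of all samples, a replicate block, removal of a trend on GC content and length (loess, span 0.3), single chemicals or lines, 81 fits that left out samples and, added after seeing the data, HCRED as the control of the knockout lines. The genes with the pattern most like CDH13 are not reported here.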

Additional observations from a re-analysis of the deposited data

How the results depend on the processing

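Depth limits NECTIN3 and CDH2 most, with means under 10 reads per library and several libraries at 0. Of 1955 values of single genes under an alternative 1772 stayed on the same side of the threshold with no called value changing sign, 154 lost a call, 18 gained one and 11 reversed. Values called under neither setting could change sign among the 1772. Of 249 counts of genes called 199 stayed within 1.5 times, and of 119 values given without a test 111 moved by less than the spread and 1 reversed. The causes were not tested.

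The number of the 8 genes called moved as follows. For NRF2 with DMSO it was 1 in place of 0 with edgeR, with no filter and in the fit of all 95 samples. For PIK3CA with DMSO it was 1 in place of 3 with DESeq2. For NRG1 with carcinogens it was 2 in place of 4 with a mean count of at least 10. With the GC content and length trend removed it was 3 in place of 5 for BaP and 1 in place of 4 for NNK. With HCRED as the control it was 3 in place of 6 for CDKN2A with DMSO, 6 in place of 7 for FAT1 and 4 in place of 6 for CDKN2A with carcinogens. The shares of all genes called under these alternatives are not given here. NECTIN3 in FAT1 with DMSO was 1.495 against HCRED and 3.69 to 5.56 when a replicate was left out, highest without GFP replicate 1.

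Within CSC, BaP and NNK alone the counts were 1, 0 and 0 for NRF2, 0 in each for FGFR1, 1, 0 and 0 for NRG1 and, within BaP and NNK, 3 and 2 for PIK3CA. Within 1 line the count for CSC was 3 in GFP and PIK3CA, 1 in HCRED and 0 in FAT1, CDKN2A, NRF2, FGFR1 and NRG1. For BaP it was 2 in FAT1 and CDKN2A, 1 in NRF2 and FGFR1 and 0 in GFP, HCRED, NRG1 and PIK3CA. For NNK it was 2 in GFP and FAT1, 1 in HCRED, NRF2 and PIK3CA and 0 in CDKN2A, FGFR1 and NRG1. These fits hold fewer samples by construction. The shares of all genes called in them are not given here, so the counts are not a comparison between lines or chemicals.

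Leaving out replicates gave 5 to 6 calls for CDKN2A with DMSO, 0 to 1 for FGFR1 with DMSO (1 without FGFR1 replicate 1) and 2 to 3 for PIK3CA with DMSO. With carcinogens it gave 6 to 7 for FAT1, 6 to 7 for CDKN2A, 1 to 2 for NRF2 (1 without replicate 1 or 3), 0 to 3 for FGFR1 and 1 to 4 for NRG1. It gave 3 for BaP under each of the 3 omissions. The counts for NRF2 and NRG1 with DMSO, PIK3CA with carcinogens, CSC, NNK and both interactions were the same in every such fit.

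The reversed values and sign changes were these. With the GC content and length trend removed NECTIN1 was −0.12, −0.22 and −0.023 for CSC, BaP and NNK, and CDH3 −0.14 for CSC and −0.15 for BaP. NECTIN3 was 2.09 for CSC within GFP, whose DMSO libraries also entered its choice, and for BaP NECTIN1 was −0.11 within GFP, CDH2 0.044 within FAT1 and CDH13 0.12 within CDKN2A. With HCRED as the control of FAT1 NECTIN1 was −0.30 and CDH13 0.025 with carcinogens, and with DMSO, without a test, CDH13 was 0.48, NECTIN1 −0.55 in place of 0.25 and NECTIN2 −0.0047 in place of 0.36.

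Replicate numbers are shared between groups, but deviations of samples with the same number correlated with a mean r of 0.0048 and pairs as low as −0.26 over 95 samples, so the samples were not treated as paired. That 54 of 95 correlated best with their own number (with DMSO, 6 of 6 for NRF2 and 1 of 6 for NRG1) is a hint from the data, not the design. With the replicate block the number of genes called was equal in all 16 comparisons. It was 4 for FGFR1 with carcinogens, where NECTIN3 (1.08, adjusted p = 0.0437) took the place of CDH2 (0.78, adjusted p = 0.143). With DESeq2 size factors the highest line was the same in 31 of 32 sets of gene and chemical and the lowest in 28.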
